A study of Mus musculus with 18 samples.

Results

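The genes described here are 10 that signalling through extracellular signal-regulated kinase (ERK) is known to switch on in many cell types, and most of which act back on that pathway. They are the phosphatase genes *Dusp4*, *Dusp5* and *Dusp6*, the Sprouty genes *Spry1*, *Spry2* and *Spry4*, the Sprouty-related genes *Spred1* and *Spred2*, and the ETS transcription factor genes *Etv4* and *Etv5*. They were listed by gene symbol, and the rule that lists them uses no measured value. Each symbol was matched through the Ensembl gene identifier to GENCODE M21, and all 10 were found once among the 54446 genes in the deposited counts. All 10 also passed the filter on low counts, which kept 19910 genes.

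In the ERK pathway, growth factors such as fibroblast growth factors (FGFs) activate receptor tyrosine kinases, which act through Ras, Raf and the kinase MEK to phosphorylate ERK. DUSP5 and DUSP6 remove the phosphates from ERK, in the nucleus and the cytoplasm, respectively, and DUSP4 is a nuclear phosphatase of ERK and related kinases. Sprouty proteins dampen signalling downstream of the receptors, SPRED proteins bring the Ras inactivator neurofibromin to the membrane, and ETV4 and ETV5 carry the signal to target promoters. In mouse embryonic stem (mES) cells, FGF4 acting through ERK is known to prime the cells for differentiation, which is why MEK inhibitors are added to media that hold them in a naive state.

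Nascent RNA was compared between WT mES cells and *Tet2*-KO (*Tet2*-/-) mES cells, which lack a dioxygenase that oxidizes 5-methylcytosine. The question of this experiment was whether RNA synthesis differed without *Tet2*. Cells of both genotypes were kept with serum, LIF, 3 µM CHIR99021, which inhibits the kinase GSK3, and 1 µM PD0325901, which inhibits MEK, and 42 h after seeding they received 1 mM 5-ethynyl uridine (EU) for 10, 20 or 40 min. Feeder cells had been cleared by passaging on gelatin. The labelled RNA was captured and sequenced after an ERCC spike-in had been added in proportion to total RNA. Each of the 6 groups had 3 replicates, which makes 18 libraries. All levels below are therefore those of cells grown with a MEK inhibitor, and cells without it were not analysed here. The methods name a single line for each genotype, so the genotype and the line cannot be told apart, and the replicates are dishes of these lines. The p-values measure the spread between those dishes.

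The libraries held 17931614 to 23069143 gene reads and 44162 to 512186 ERCC reads. The gene reads per ERCC read of WT were 42.8 to 50.8 after 10 min of EU, 140 to 157 after 20 min and 239 to 259 after 40 min. In *Tet2*-KO, they were 89.6 to 101, 192 to 215 and 366 to 429, above WT at each time. A gene was therefore measured on 2 scales. The level per ERCC read, given per 1000 ERCC reads, carries any change shared by all labelled RNA, whereas the share of gene reads, given in CPM, reads per 1000000 gene reads, removes it. A single read was worth 0.00195 to 0.0226 per 1000 ERCC reads, depending on the library. Across all genes tested, the median log2 fold change of *Tet2*-KO over WT was 0.70 per ERCC read and -0.04 as a share. *Tet2* itself had a log2 fold change of 0.54 per ERCC read and -0.20 as a share, with reads in both genotypes, so its counts do not check the genotype. Of 6 mES markers, *Sox2* had 0 reads in every library and lies within *Sox2ot* on the same strand, and each of the other 5 had at least 1438 reads. The summed mES markers came to 1827 to 1978 CPM in WT and 1303 to 1465 CPM in *Tet2*-KO, and most of that difference was *Zfp42*, at 520 to 568 and 103 to 122 CPM. *Klf4* was at 124 to 173 CPM in WT and 85.3 to 102 CPM in *Tet2*-KO, *Nanog* at 293 to 330 and 267 to 306 CPM, *Esrrb* at 767 to 896 and 750 to 842 CPM, and *Pou5f1* at 74.9 to 108 and 79.8 to 113 CPM. The part of these differences in the results below was not tested. The 8 fibroblast markers summed to 2.93 to 16.4 CPM and the 6 primitive endoderm markers to 5.49 to 13.8 CPM over all libraries. In such bulk samples, fewer cells of a type and less RNA per cell cannot be told apart.

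Promoter windows of RefSeq (GRCm38.p6, 300 bases around the start) were given for 7 of the 10 genes, with no entry for *Dusp4*, *Spry4* and *Etv4*. The windows were searched on both strands for the ETS motif CCGGAAG, the AP-1 motif TGAGTCA and the CArG box that binds serum response factor. Among the 8 windows of the 7 genes, only that of *Dusp5* held any of them, with 2 CArG boxes side by side at chr19:53529063-53529072 and chr19:53529073-53529082. Of all 32851 windows of this length, 8.86% held the ETS motif, 5.2% the AP-1 motif and 1.63% a CArG box. The sequence of *Dusp5* is shown because it holds the boxes, and those of *Dusp6* and *Spry2* because their levels per ERCC read differed between the genotypes in opposite directions, as described below. Each runs 5′ to 3′ on the strand of its gene and ends before the start given by RefSeq and by GENCODE, and capitals mark the CArG boxes. The windows are chr19:53528895-53529108 (plus strand) for *Dusp5*, chr10:99262981-99263230 (plus strand) for *Dusp6* and chr14:105896820-105897069 (minus strand) for *Spry2*.
Dusp5: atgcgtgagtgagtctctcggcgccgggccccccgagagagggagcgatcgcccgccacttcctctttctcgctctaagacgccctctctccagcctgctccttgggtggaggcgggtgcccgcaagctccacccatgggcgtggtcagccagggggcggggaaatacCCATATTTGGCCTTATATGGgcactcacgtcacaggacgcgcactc
Dusp6: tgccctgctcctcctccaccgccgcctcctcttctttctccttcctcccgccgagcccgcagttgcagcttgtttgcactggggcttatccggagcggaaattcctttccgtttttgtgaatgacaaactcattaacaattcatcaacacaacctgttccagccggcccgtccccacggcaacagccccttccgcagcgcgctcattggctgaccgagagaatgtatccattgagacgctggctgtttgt
Spry2: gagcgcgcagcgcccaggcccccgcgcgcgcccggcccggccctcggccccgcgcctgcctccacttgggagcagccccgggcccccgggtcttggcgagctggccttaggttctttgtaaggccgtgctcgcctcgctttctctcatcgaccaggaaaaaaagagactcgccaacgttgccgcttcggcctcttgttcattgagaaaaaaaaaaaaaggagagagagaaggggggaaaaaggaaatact

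Averaged over the 3 EU times, the genes did not move together between the genotypes (edgeR's quasi-likelihood test, Benjamini-Hochberg adjusted p under 0.05 over all genes tested). Per ERCC read, 6 were higher in *Tet2*-KO, namely *Dusp6*, *Spry1*, *Spred1*, *Spred2*, *Etv4* and *Etv5*, and 3 were lower, namely *Dusp5*, *Spry2* and *Spry4*. Of all genes tested, 80.5% were higher and 4.15% lower on this scale. As a share of gene reads, only *Spred2* was higher among the 10, and 7 were lower, namely *Dusp4*, *Dusp5*, *Spry1*, *Spry2*, *Spry4*, *Spred1* and *Etv4*, where 24.6% of all genes tested were higher and 32% lower. With TMM or DESeq2 on this scale, *Spry1* and *Etv4* no longer passed and 5 were lower. The median log2 fold change of the 10 genes was 0.52 per ERCC read and -0.21 as a share, and 7 of the 10 lay below the median of all genes on either scale. With TMM normalization of the gene counts in place of the ERCC total, 2 were higher and 5 lower, and *Spry1*, *Spred1* and *Etv4*, higher per ERCC read, took negative values. *Dusp5*, *Spry2* and *Spry4* were thus lower on both scales, and the plot of fold changes places them furthest to the left together with *Dusp4*.

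**Figure D1:**
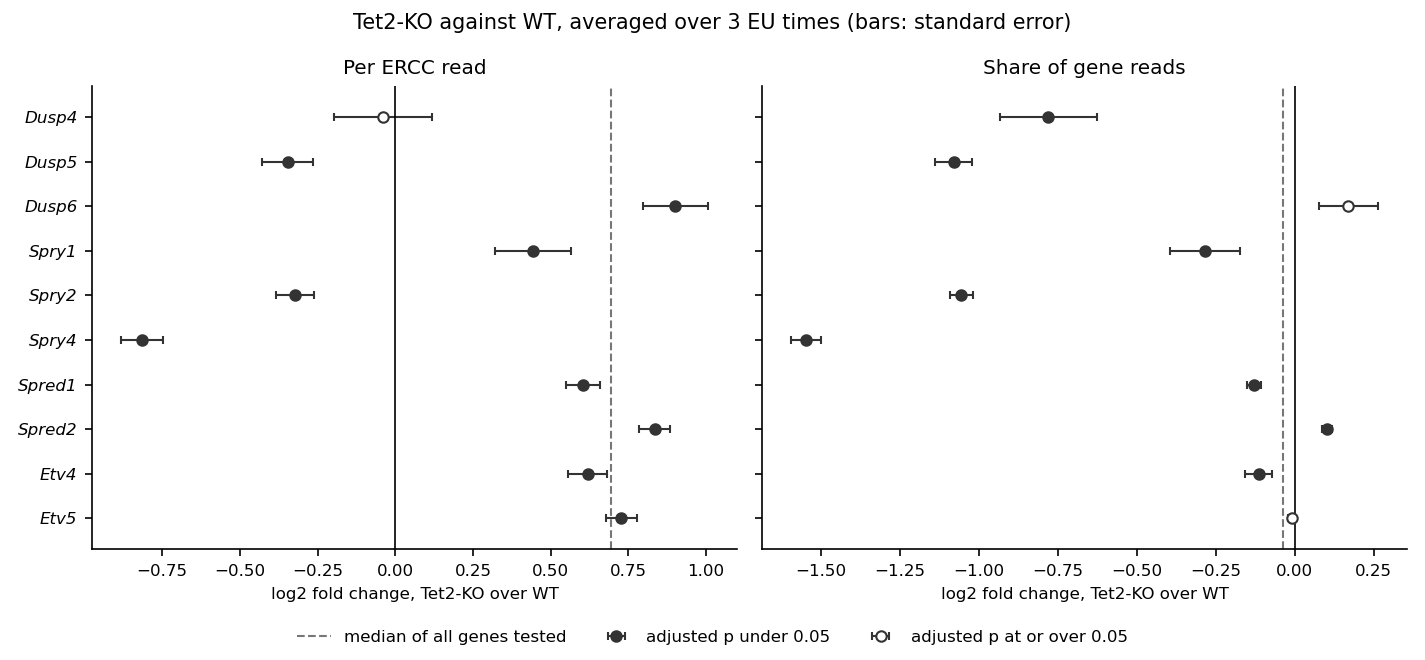
Log2 fold change of *Tet2*-KO over WT averaged over the 3 EU times for each of the 10 genes, per ERCC read (left) and as a share of gene reads (right). Points are estimates of edgeR, bars standard errors, filled points have an adjusted p under 0.05, and dashed lines mark the median of all 19910 genes tested (0.70 and -0.04). *Spry4* lies lowest in both panels, at -0.81 and -1.55.

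Among the phosphatase genes, only *Dusp6* was higher in *Tet2*-KO per ERCC read. It lies on chromosome 10 (mm10, 99263231 to 99267489, plus strand) and had 70 to 157 reads per library. In WT, its level per 1000 ERCC reads was 0.265, 0.206 and 0.211 in the 3 replicates at 10 min, 0.691, 0.764 and 0.620 at 20 min, and 1.48, 1.84 and 1.59 at 40 min. In *Tet2*-KO, it was 0.491, 0.463 and 0.370 at 10 min, 1.21, 1.24 and 1.51 at 20 min, and 2.67, 2.84 and 3.05 at 40 min. Every *Tet2*-KO library lay above every WT library of its EU time. Per ERCC read, the log2 fold change was 0.90 (SE 0.10, adjusted p = 2.42e-16 by edgeR), a 1.87-fold difference. The median of all genes tested was 0.70 on this scale, with 80.5% of them higher, and *Dusp6* ranked at 73.4% of them. As a share of gene reads, *Dusp6* ran from 4.04 to 7.10 CPM in WT and from 3.67 to 7.76 CPM in *Tet2*-KO, and the genotypes overlapped at 10 and 40 min but not at 20 min. For the share, the log2 fold change was 0.17, with a 95% interval from -0.02 to 0.36 (edgeR, adjusted p = 0.118). Without *Tet2*-KO 10 min replicate 3, it was 0.22 and passed the test (adjusted p = 0.044).

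*Dusp5* (chromosome 19, 53529109 to 53542431, plus strand), the gene with the CArG boxes shown above, moved the other way. Its share of gene reads in WT was 23.1, 22.1 and 22.6 CPM at 10 min, 15.4, 15.5 and 17.8 CPM at 20 min, and 14.7, 15.0 and 13.7 CPM at 40 min. In *Tet2*-KO, the share was 8.89, 8.66 and 8.92 CPM at 10 min, 8.73, 8.59 and 7.91 CPM at 20 min, and 7.86, 6.97 and 7.86 CPM at 40 min. All 9 *Tet2*-KO libraries were below all 9 WT libraries, and the WT libraries at 10 min were the highest. This made a log2 fold change of -1.08 as a share (SE 0.06, adjusted p = 2.29e-17 by edgeR) and -0.35 per ERCC read (SE 0.08, adjusted p = 5.28e-05). The summed fibroblast markers were also highest in WT at 10 min, at 15.9 to 16.4 CPM. They came to 11.3 to 12.7 CPM in *Tet2*-KO at 20 min and to 2.93 to 7.45 CPM in the other groups. All 8 of these markers were found, with *Lum* at 0 to 1 reads and *Dcn* at 0 to 6 reads. The part of these markers in the level of *Dusp5* was not tested.

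*Dusp4* (chromosome 8, 34807297 to 34819894, plus strand) had the fewest reads of the 10, between 21 and 76 per library, so its values are the least precise. Its share was 1.98 to 4.01 CPM in WT and 0.934 to 2.54 CPM in *Tet2*-KO, and the genotypes overlapped at 10 min only. The share was lower in *Tet2*-KO with a log2 fold change of -0.78 (SE 0.15, adjusted p = 5.59e-05 by edgeR). Per ERCC read, the log2 fold change was -0.04, with a 95% interval from -0.35 to 0.27 (edgeR, adjusted p = 0.813), and its sign changed when single libraries were left out (-0.15 to 0.05).

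**Figure D2:**
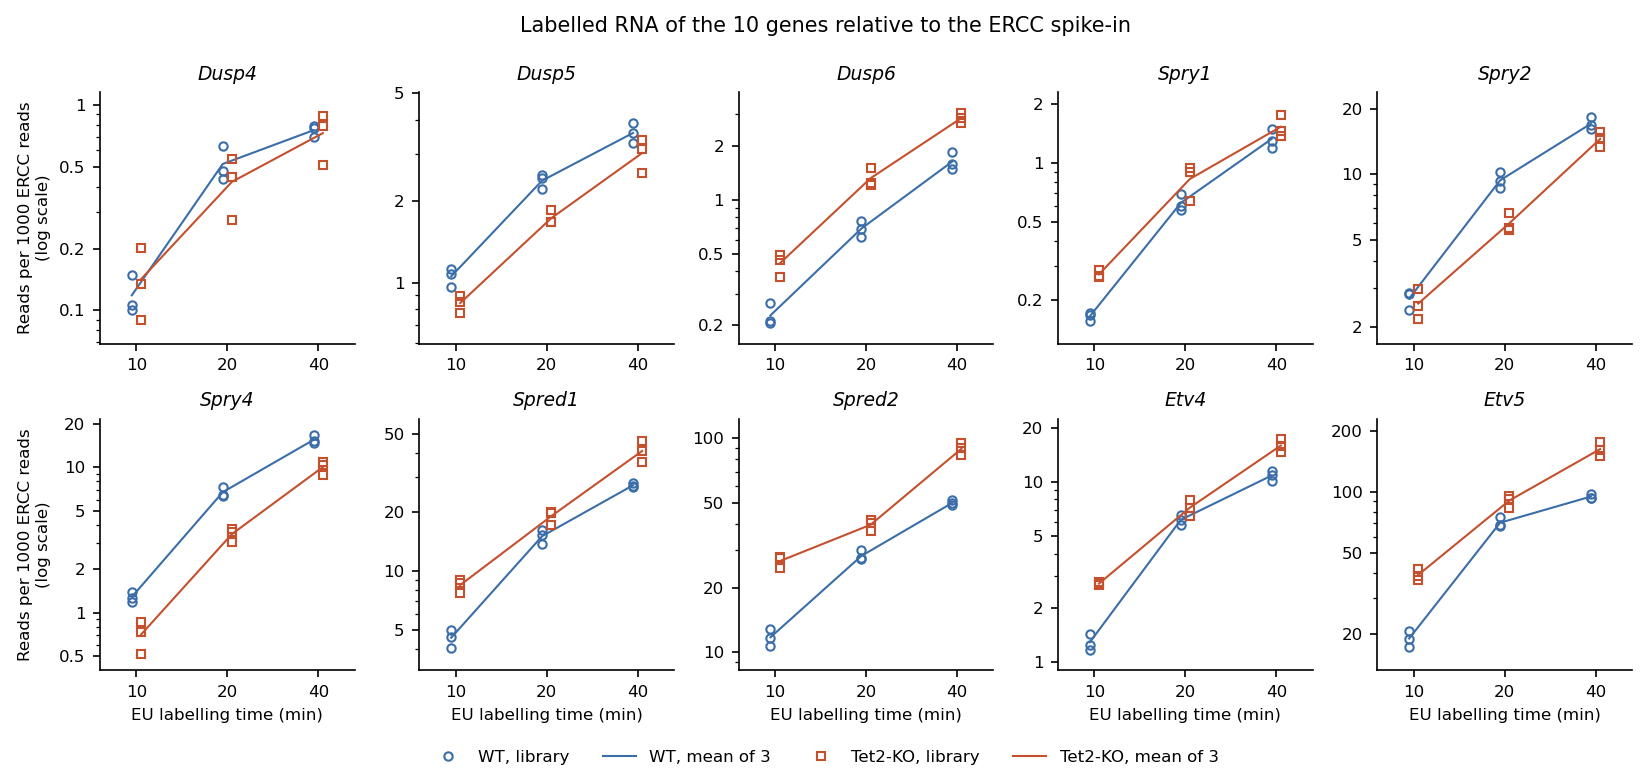
Reads per 1000 ERCC reads (log axis, own range for each gene) against EU labelling time in min (10, 20 and 40, evenly spaced) for the 10 genes, with circles for WT libraries, squares for *Tet2*-KO libraries and lines through the means of 3. *Dusp6*, *Spred1*, *Spred2* and *Etv5* libraries of *Tet2*-KO lie above WT at all 3 times, and those of *Spry4* lie below.

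The Sprouty genes were lower in *Tet2*-KO as a share of gene reads, and *Spry4* had the lowest log2 fold change of the 10 genes on both scales. *Spry4* lies on chromosome 18 (38586247 to 38601415, minus strand), where 2 short RNA genes overlap it on the other strand. In WT, its level per 1000 ERCC reads was 1.25, 1.40 and 1.19 at 10 min, 6.49, 7.37 and 6.37 at 20 min, and 15.1, 16.6 and 14.7 at 40 min. In *Tet2*-KO, the level was 0.858, 0.522 and 0.729 at 10 min, 3.08, 3.75 and 3.57 at 20 min, and 10.9, 8.89 and 10.4 at 40 min. The genotypes did not overlap at any EU time, although the total labelled RNA per ERCC read was higher in *Tet2*-KO. Its log2 fold change was -0.81 per ERCC read (SE 0.07, adjusted p = 9.55e-29 by edgeR), a level 0.569 times that of WT.

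The share of *Spry4* in WT was 27.0, 27.4 and 27.8 CPM at 10 min, 44.9, 46.9 and 45.5 CPM at 20 min, and 62.0, 64.3 and 61.6 CPM at 40 min. In *Tet2*-KO, it was 8.94, 5.83 and 7.24 CPM at 10 min, 16.1, 17.4 and 16.9 CPM at 20 min, and 25.3, 24.3 and 26.1 CPM at 40 min. The highest *Tet2*-KO library stood below the lowest WT library over all times. The log2 fold change of the share was -1.55 (SE 0.05, adjusted p = 3.42e-24 by edgeR), or 0.342 times WT, and only 2.17% of all genes tested ranked at or below it.

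*Spry2* (chromosome 14, 105891947 to 105896819, minus strand) had the most reads of the Sprouty genes in every library. Its share in WT was 60.6, 56.2 and 55.7 CPM at 10 min, 64.4, 65.0 and 61.7 CPM at 20 min, and 69.0, 70.9 and 67.7 CPM at 40 min. In *Tet2*-KO, it was 26.0, 24.2 and 29.6 CPM at 10 min, 29.6, 30.8 and 26.3 CPM at 20 min, and 36.5, 36.5 and 36.9 CPM at 40 min. All WT libraries lay above all *Tet2*-KO libraries, and the log2 fold change was -1.06 as a share (SE 0.04, adjusted p = 1.50e-22 by edgeR) and -0.32 per ERCC read (SE 0.06, adjusted p = 2.29e-07).

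*Spry1* (chromosome 3, 37639947 to 37644598, plus strand), with 50 to 128 reads per library, gave opposite signs on the 2 scales. The gene Gm42922 overlaps it on the other strand, and whether reads were assigned by strand is not given in the sources used here. Per 1000 ERCC reads, it ranged from 0.157 to 1.49 in WT and from 0.264 to 1.76 in *Tet2*-KO, with no overlap at 10 min and overlap at 20 and 40 min. The log2 fold change was 0.44 (SE 0.12, adjusted p = 0.000406 by edgeR). As a share, *Spry1* ranged from 3.32 to 6.22 CPM in WT and from 2.62 to 4.80 CPM in *Tet2*-KO, and its log2 fold change of -0.29 (SE 0.11, adjusted p = 0.028 by edgeR) rested on single libraries. Leaving out WT 10 min replicate 3, WT 40 min replicate 3, *Tet2*-KO 10 min replicate 3, *Tet2*-KO 20 min replicate 2 or *Tet2*-KO 40 min replicates 1 or 3, each on its own, gave -0.27 to -0.22 with adjusted p between 0.0503 and 0.0804. TMM normalization turned the direction per ERCC read to -0.25 (adjusted p = 0.0583).

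**Figure D3:**
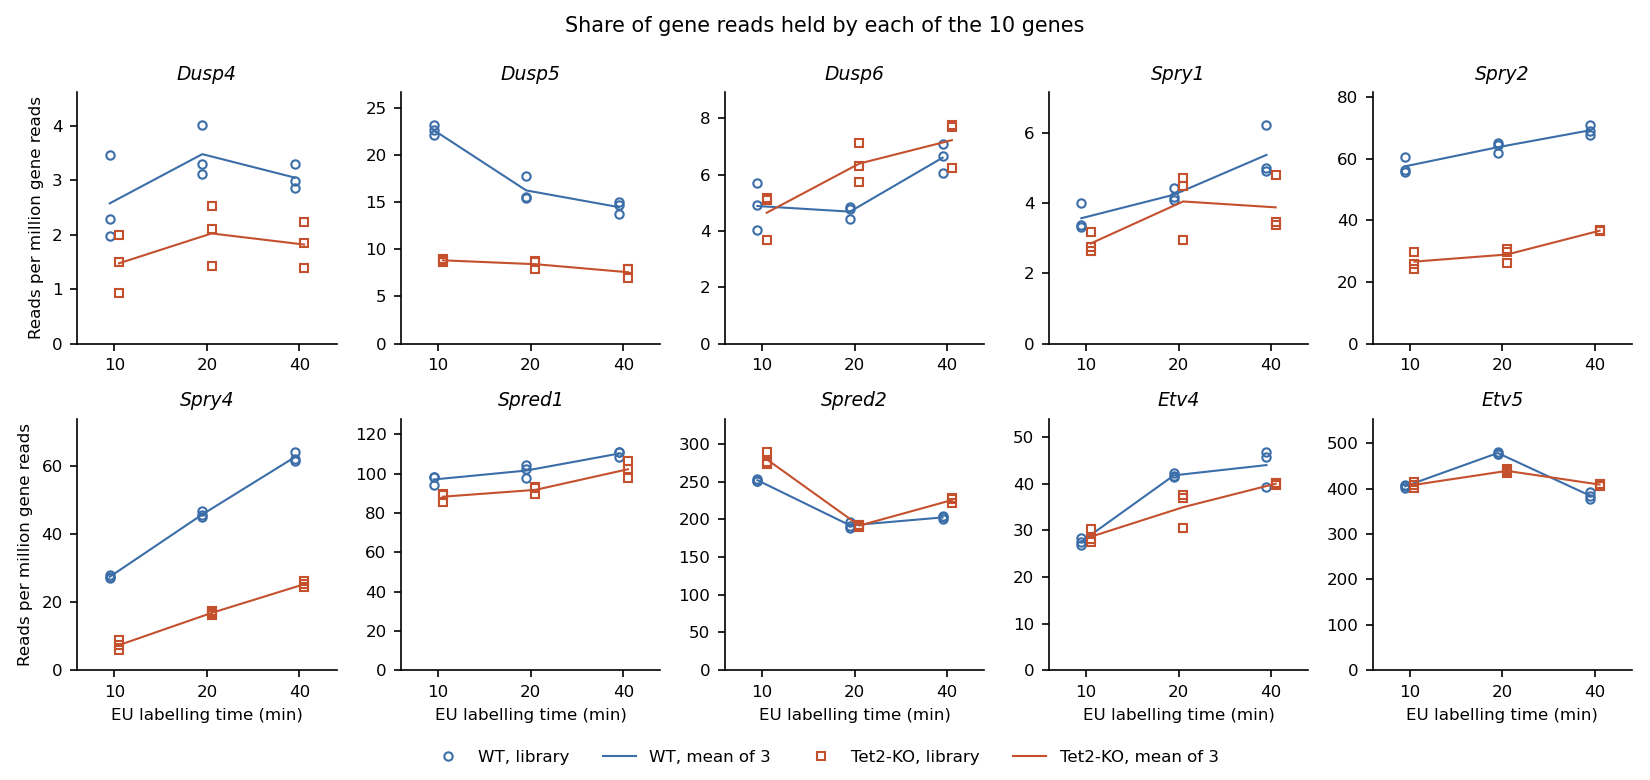
Share of gene reads in CPM (linear axis from 0, own range for each gene) against EU labelling time in min (10, 20 and 40, evenly spaced) for the 10 genes, with circles for WT libraries, squares for *Tet2*-KO libraries and lines through the means of 3. The WT libraries of *Dusp5*, *Spry2* and *Spry4* lie above the *Tet2*-KO libraries at every time, whereas those of *Etv5* and *Spred2* lie close to them.

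The *Spred* genes lay in the middle of all genes, with *Spred1* at 39.5% and *Spred2* at 67.2% of the ranking of log2 fold changes per ERCC read. *Spred2* (chromosome 11, 19924375 to 20024026, plus strand) had 3617 to 6515 reads per library. Per 1000 ERCC reads, it was 11.7, 12.9 and 10.8 at 10 min, 27.2, 30.0 and 27.5 at 20 min, and 49.7, 51.7 and 48.6 at 40 min in WT. In *Tet2*-KO, it was 27.8, 24.7 and 27.5 at 10 min, 37.0, 41.4 and 40.0 at 20 min, and 95.0, 83.6 and 89.8 at 40 min. The *Tet2*-KO libraries were above WT at each time, most at 10 min, and the log2 fold change was 0.83 per ERCC read (SE 0.05, adjusted p = 7.63e-47 by edgeR) and 0.10 as a share (SE 0.02, adjusted p = 1.55e-06), where the genotypes overlapped at 20 min. *Spred1* (chromosome 2, 117121374 to 117182279, plus strand) was also higher per ERCC read, with a log2 fold change of 0.60 (SE 0.05, adjusted p = 2.32e-25 by edgeR). Its share was lower, at 94.4 to 111 CPM in WT and 85.8 to 107 CPM in *Tet2*-KO, without overlap at any EU time (log2 fold change -0.13, SE 0.02, adjusted p = 8.80e-06 by edgeR). With TMM normalization in place of the ERCC total, *Spred1* was lower (-0.09, adjusted p = 0.00121).

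*Etv5* (chromosome 16, 22381309 to 22439719, minus strand) had the highest share of the 10 genes, with 7300 to 10355 reads per library. Its share was 402 to 408 CPM at 10 min, 477 to 482 CPM at 20 min and 377 to 392 CPM at 40 min in WT, and 402 to 415, 435 to 444 and 407 to 411 CPM in *Tet2*-KO. The genotypes overlapped at 10 min, *Tet2*-KO was below WT at 20 min and above it at 40 min. Averaged over the times, the log2 fold change of the share was -0.01, with a 95% interval from -0.03 to 0.02 (edgeR, adjusted p = 0.639). Per ERCC read it was 0.73 (SE 0.05, adjusted p = 4.74e-39), close to the median of all genes of 0.70.

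*Etv4* (chromosome 11, 101769742 to 101785371, minus strand) had a level per 1000 ERCC reads in WT of 1.29 ± 0.137 (SD, n = 3) after 10 min of EU, 6.16 ± 0.380 after 20 min and 10.9 ± 0.631 after 40 min. In *Tet2*-KO, the level was 2.73 ± 0.0389, 7.20 ± 0.766 and 15.9 ± 1.27. The genotypes were apart at 10 and 40 min and overlapped at 20 min. Averaged, the log2 fold change was 0.62 per ERCC read (SE 0.06, adjusted p = 5.36e-21 by edgeR) and -0.11 as a share (SE 0.04, adjusted p = 0.0205). The call on the share was lost without WT 40 min replicate 1 (-0.10, adjusted p = 0.0583) or without *Tet2*-KO 20 min replicate 3 (-0.08, adjusted p = 0.0737). With TMM normalization of the gene counts, which uses no ERCC reads, the log2 fold change was -0.07 (adjusted p = 0.135 by edgeR).

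Within a family, the reads of 1 gene can be set against those of its relatives in the same library, which depends on neither scale. In all, 4 such shares were compared by a two-sided exact permutation test over all 8000 exchanges of genotype labels within EU times, with p not adjusted over the 4. *Dusp6* held a median of 20.0% of the reads of the 3 phosphatase genes in WT (14.4 to 28.3%) and 38.3% in *Tet2*-KO (25.2 to 48.2%). Its odds over *Dusp4* and *Dusp5* were higher in *Tet2*-KO by 1.20 on the log2 scale (exact p = 0.00025, the smallest these exchanges can give). As shares of all gene reads, *Dusp4* and *Dusp5* were lower in *Tet2*-KO (log2 fold changes -0.78 and -1.08), and *Dusp6* was not called (0.17). *Spry4* held a median of 40.3% of the reads of the 3 Sprouty genes in WT (29.7 to 45.9%) and 34.0% in *Tet2*-KO (17.6 to 39.3%), a log2 odds difference of -0.57 (exact p = 0.00025). *Spred1* held 34.9% of the *Spred* reads in WT and 31.1% in *Tet2*-KO, a log2 odds difference of -0.23 (exact p = 0.00025). The share of *Etv5* in *Etv4* and *Etv5* was 92.0% in WT and 92.3% in *Tet2*-KO, and the log2 odds difference of 0.11 did not pass the test (exact p = 0.056). It passed when WT 10 min replicate 1, WT 40 min replicate 2, *Tet2*-KO 10 min replicate 2 or *Tet2*-KO 20 min replicates 1 or 2 were left out singly (0.11 to 0.13, exact p between 0.01225 and 0.04875). In both genotypes the share of *Dusp6* and of *Spry4* in its family was highest at 40 min, as the plot of family shares shows.

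**Figure D4:**
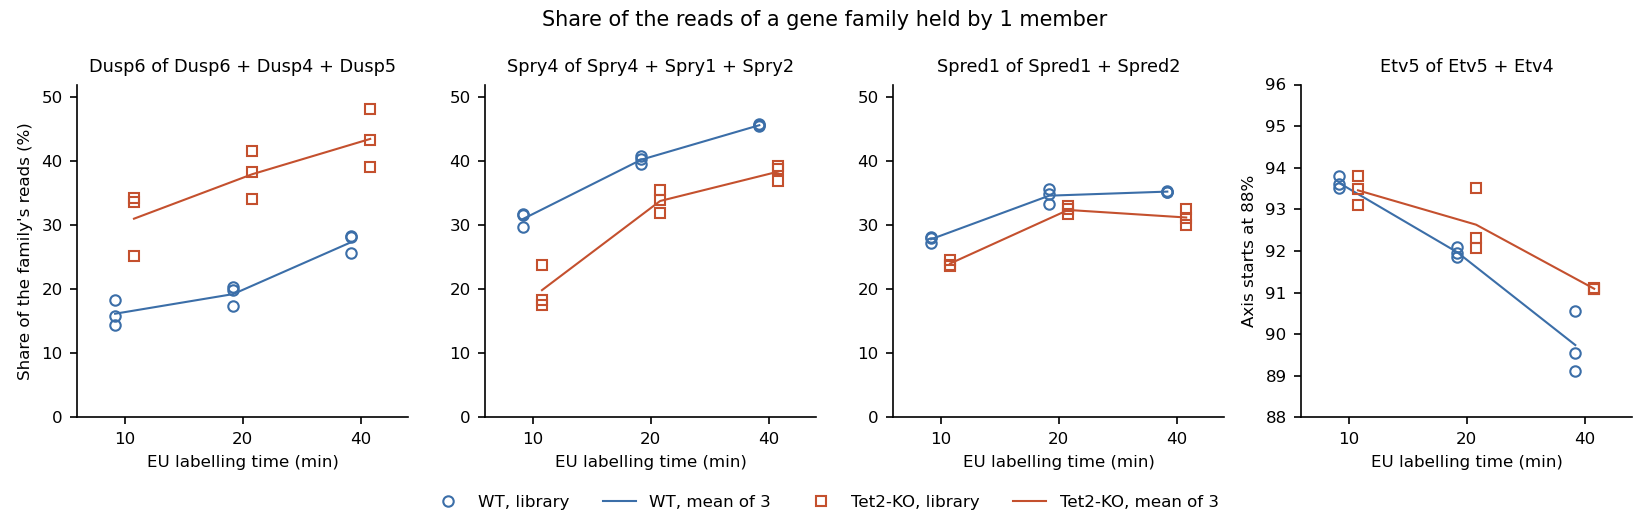
Share in percent of the reads of a gene family that 1 of its genes held in each library, against EU labelling time in min (10, 20 and 40, evenly spaced), with circles for WT, squares for *Tet2*-KO and lines through the means of 3. *Dusp6* held a larger share in *Tet2*-KO at every time and *Spry4* and *Spred1* a smaller one, and the panel of *Etv5* has an axis that starts at 88%.

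At the single EU times, the counts of genes past the test were similar to the averaged comparison. Per ERCC read, 6 of the 10 were higher and 2 lower in *Tet2*-KO at 10 min (79% and 2.1% of all genes tested), 4 higher and 3 lower at 20 min (53.7% and 4.86%), and 5 higher and 2 lower at 40 min (68.2% and 2.84%). *Spry4* was lower at each of the 3 times, with log2 fold changes of -0.86, -0.96 and -0.63, and *Dusp6* higher at each, with 0.96, 0.93 and 0.81. The medians of all genes tested were 0.96, 0.45 and 0.67 at these times. At 10 min, *Dusp6* thus lay at the median, ranking at 50.1% of all genes. As a share of gene reads, 1 was higher and 5 lower at 10 min (17.9% and 27.1%), 1 higher and 7 lower at 20 min (17.6% and 20.7%), and 2 higher and 6 lower at 40 min (18.9% and 19.6%). *Dusp4*, *Dusp5*, *Spry2*, *Spry4* and *Spred1* were the 5 lower at 10 min, and all 5 were also lower at 20 and 40 min. The gene that was higher at 20 min was *Dusp6* (0.45, adjusted p = 0.0271 by edgeR), and this call was lost without WT 20 min replicates 1 or 3 or *Tet2*-KO 20 min replicates 1 or 3. Per ERCC read, 1 gene in place of 2 was lower at 10 min without WT replicates 1 or 2 or *Tet2*-KO replicates 1 or 2 of that time, and likewise at 40 min without WT replicates 1 or 2 or *Tet2*-KO replicates 2 or 3. Without WT 40 min replicate 3, 3 in place of 6 had a lower share at 40 min.

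The genotype difference itself changed between 10 and 40 min of EU for few of the genes. Per ERCC read, it fell for *Etv4* (change of the log2 difference -0.53, SE 0.15, adjusted p = 0.00677 by edgeR) and for *Spred2* (-0.34, SE 0.12, adjusted p = 0.035), and the other 8 did not pass the test. Of all genes tested, 19.3% fell and 0.552% rose in this comparison, and the median of all genes was -0.29. As a share of gene reads, *Etv4* and *Spred2* gave -0.19 and 0.004 (adjusted p = 0.28 and 0.973), and *Spry4* was the only one of the 10 past the test, with a change of 0.57 (SE 0.12, adjusted p = 0.00152 by edgeR). On that scale, 5.89% of all genes tested rose and 3.36% fell. The share of *Spry4* in *Tet2*-KO was 0.271 times that of WT at 10 min and 0.403 times at 40 min. *Dusp5* gave 0.42 (SE 0.14, adjusted p = 0.0569). The call of *Spred2* was lost when WT 10 min replicates 1 or 3, WT 40 min replicates 1 or 2, *Tet2*-KO 10 min replicates 1 or 3 or *Tet2*-KO 40 min replicates 2 or 3 were left out singly (-0.35 to -0.28, adjusted p between 0.064 and 0.119). Without WT 10 min replicate 2 or *Tet2*-KO 40 min replicate 1, 4 of the 10 genes fell. The number of all genes called in either direction also varied when 1 library was left out, from 1768 to 5949. It was 5949 without WT 10 min replicate 2.

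The mean level per ERCC read was higher at each longer EU time for all 10 genes in both genotypes, so the effect of EU time was read on the share of gene reads. The share of *Spry4* rose from 10 to 40 min by a log2 fold change of 1.19 in WT (SE 0.07, adjusted p = 4.13e-15 by edgeR) and 1.76 in *Tet2*-KO (SE 0.09, adjusted p = 1.87e-16), or 2.28-fold and 3.40-fold. These values ranked at 98.8% and 99.8% of all genes tested. *Etv4* rose by 0.68 and 0.49, *Dusp6* by 0.43 and 0.63, *Spry2* by 0.27 and 0.46, and *Spred1* by 0.18 and 0.21 in WT and *Tet2*-KO. *Spry1* rose in WT (0.59, adjusted p = 0.00949), and its value in *Tet2*-KO was 0.45 (adjusted p = 0.0773). *Spred2* fell in both, with log2 fold changes of -0.31 and -0.31. *Dusp5* fell in WT (-0.65, adjusted p = 4.84e-07) and was at -0.22 in *Tet2*-KO (adjusted p = 0.107), and *Etv5* fell slightly in WT (-0.08, adjusted p = 0.00437) and was at 0.00 in *Tet2*-KO.

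In all, 6 of the 10 shares rose and 3 fell with EU time in WT, and 5 rose and 1 fell in *Tet2*-KO. The background was 16.1% of all genes tested rising and 29.5% falling in WT, and 16.5% rising and 20% falling in *Tet2*-KO. The difference between the genotypes was tested as the change above, and among the 10 it passed for *Spry4* alone. The call of *Dusp6* in WT was lost without WT 10 min replicate 2 (0.31, adjusted p = 0.132), WT 40 min replicate 2 (0.38, adjusted p = 0.0948) or WT 40 min replicate 3 (0.43, adjusted p = 0.0588), and that of *Spry1* without WT 40 min replicate 3 (0.47, adjusted p = 0.0712).

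**Figure D5:**
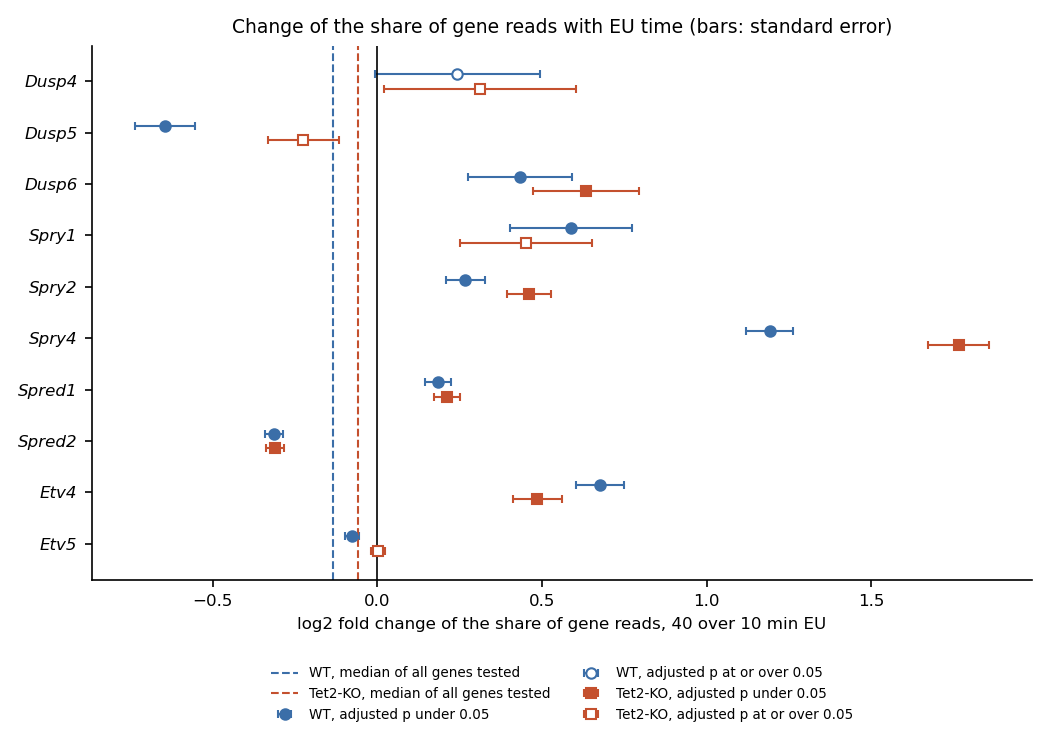
Log2 fold change of the share of gene reads from 10 to 40 min of EU for each of the 10 genes, with circles for WT and squares for *Tet2*-KO, bars for standard errors and dashed lines for the median of all genes tested in each genotype (-0.14 and -0.06). Filled points have an adjusted p under 0.05, and *Spry4* lies furthest to the right in both genotypes.

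The increase of the level per 1000 ERCC reads per min of EU was described by a least squares slope over 9 libraries of a genotype, with no test. The slope of *Dusp6* was 0.0469 (SE 0.00285) in WT and 0.08 (SE 0.00385) in *Tet2*-KO, a ratio of 1.70. For *Spry4*, it was 0.468 (SE 0.0193) in WT and 0.314 (SE 0.0164) in *Tet2*-KO, a ratio of 0.67. The ratio was 1.72 for both *Spred2* and *Etv5*, 1.47 for *Spred1*, 1.43 for *Etv4* and 1.07 for *Spry1*, and it was 0.956 for *Dusp4*, 0.885 for *Dusp5* and 0.865 for *Spry2*. The slope was thus larger in *Tet2*-KO for 6 of the 10, but this depended on the times used. It was larger for 4 of the 10 from 10 and 20 min only and for 8 from 20 and 40 min only. Slopes of other genes were not computed, so these counts have no background. In WT, all gene reads per ERCC read were 42.8 to 50.8 at 10 min and 239 to 259 at 40 min. In *Tet2*-KO, they were 89.6 to 101 and 366 to 429, so the total also rose more in *Tet2*-KO. From the shorter times, the ratio was 0.776 for *Spred2*, 0.918 for *Etv4*, 0.706 for *Dusp4*, 0.670 for *Dusp5* and 0.508 for *Spry2*. From the longer times, these 5 ratios were 2.30, 1.86, 1.29, 1.08 and 1.11. The ratio of *Etv5* was 1.00 from the shorter and 2.95 from the longer times, that of *Spred1* 1.01 and 1.78, and that of *Spry1* 1.21 and 0.999. *Dusp6* stayed above 1 (1.89 and 1.63) and *Spry4* below it (0.506 and 0.752) with either pair of times.

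Levels were compared between genes per length, as CPM per kb over the 9 WT libraries. Per kb of exon, *Etv5* was highest (median 99.1, range 92.0 to 118), followed by *Spred2* (44.0, 40.8 to 54.9), *Spry2* (30.9, 26.7 to 34.0), *Spred1* (15.1, 13.9 to 16.4), *Etv4* (13.3, 8.67 to 15.1), *Spry4* (9.56, 5.67 to 13.5), *Dusp5* (6.26, 5.54 to 9.36), *Dusp6* (1.57, 1.29 to 2.27), *Spry1* (1.44, 1.14 to 2.14) and *Dusp4* (1.14, 0.721 to 1.47). The ranges of neighbours in this order overlapped from *Spred1* through *Etv4* and *Spry4* to *Dusp5*, and from *Dusp6* through *Spry1* to *Dusp4*. Nascent RNA holds introns, but whether reads in introns were counted is not given in the sources used here. Per kb of the whole gene, the order was another one, and it depends on intron length if only exons were counted. *Spry2* led with a median of 13.2, then *Etv5* with 6.96 and *Spry4* with 3.00, and *Dusp4* was lowest with 0.248. In *Tet2*-KO, *Etv5* (7.04) and *Spry2* (6.08) had overlapping ranges at the head of that order, and *Spry4* stood at 1.11 in the seventh place.

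Genes of the cascade to ERK, those of the FGF family and other ERK feedback genes were read in the same fits. A list of 20 genes of the cascade to ERK also held genes that act upstream of SOS and genes whose products inactivate Ras. All 20 were higher in *Tet2*-KO per ERCC read, where 80.5% of all genes tested were. Their median log2 fold change was 0.77 beside 0.70 for all genes. As a share, 7 were higher, 3 lower and 10 not called, where 24.6% of all genes tested were higher and 32% lower, and the median was 0.03 beside -0.04. *Sos2*, which encodes a Ras exchange factor, was the highest per ERCC read (1.40), and its share was also higher (0.66). *Map2k2*, which encodes MEK2, was the lowest per ERCC read (0.17), and its share was lower, with a log2 fold change of -0.56 (edgeR, adjusted p = 1.16e-21).

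Of 10 FGF ligands and receptors, 9 could be tested and 6 were higher per ERCC read and 3 not called, while as a share 2 were higher and 4 lower. The same background applies, with 80.5% of all genes tested higher per ERCC read, and 24.6% higher and 32% lower as a share. The median log2 fold change was 0.67 per ERCC read and -0.06 as a share, beside 0.70 and -0.04 for all genes. *Fgf3* (1.16) and *Fgfr3* (1.01) were highest per ERCC read, and *Fgf5* (-0.89, adjusted p = 0.0736) and *Fgf8* (-0.72, adjusted p = 0.131) had the lowest values by edgeR without passing the test. *Fgf5* had 0 to 20 reads and *Fgf8* 0 to 13 reads per library.

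A list of 16 other genes known as ERK feedback genes or targets had 14 that could be tested. Per ERCC read, 8 were higher and 1 lower in *Tet2*-KO, where 80.5% and 4.15% of all genes tested were. As a share, 1 was higher and 11 lower, where 24.6% and 32% were. The medians were 0.24 and -0.49, beside 0.70 and -0.04 for all genes. The highest per ERCC read were *Dusp9* (1.40, adjusted p = 2.95e-19), a phosphatase of ERK, and *Phlda1* (0.68). The lowest were *Dusp8* (-0.62, adjusted p = 0.00465 by edgeR) and *Dusp10* (-0.08, adjusted p = 0.426), which encode phosphatases that act mainly on the stress kinases. *Dusp9* was also the gene with a higher share (0.67, adjusted p = 0.000201), at 1.08 to 3.13 CPM in WT and 2.22 to 4.39 CPM in *Tet2*-KO.

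The protein-coding genes outside the 10 whose log2 CPM was most like that of *Spry4* over the 18 libraries were *Wsb2* (Pearson r = 0.976), *Lin28a* (r = 0.974) and *Smc1a* (r = 0.974), and 1.53% of the genes had an r over 0.9. Their shares were lower in *Tet2*-KO, with log2 fold changes of -0.48, -0.71 and -0.25. Because they were picked by likeness over libraries of both genotypes, this is not an independent result. For *Dusp6*, the genes most like it were *Naa40* (r = 0.916), *Ddx5* (r = 0.883) and *Eprs* (r = 0.866), with log2 fold changes of the share of 0.06, 0.04 and 0.02. These coefficients describe libraries that share genotype, EU time and depth.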

How the data were processed

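Nascent RNA was sequenced from WT and *Tet2*-KO mES cells in 18 libraries. The authors trimmed reads, aligned them to mm10 and counted them on GENCODE genes and ERCC transcripts, and the submitters' processing notes name Trimmomatic 0.39, HISAT2 2.2.1 and HTSeq 0.12.4. The deposited values are raw read counts per gene and library. The feature type, strand setting and overlap mode of HTSeq are not given in the sources used here. Summary entries that name no gene held 20.9 to 24.9% of the reads and were left out.

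Groups were taken from the sample labels. Genes were filtered with filterByExpr (minimum count 10), and 1 fit of 6 group means (12 residual degrees of freedom) was made with edgeR 4.0.16 (quasi-likelihood F-test, R 4.3.3) per scale, with the ERCC total or the total of gene reads as library size. p-values were adjusted by Benjamini-Hochberg over the 19910 genes tested, with a threshold of 0.05. Standard errors were derived from the log2 fold change and F. Alternatives were TMM, other filters, a replicate block, DESeq2 1.42.0, other ERCC sets and leaving out each library. The fits were tested on simulated data. Family shares, slopes and marker sums were computed with Python 3.11.15, numpy 2.4.6 and pandas 2.3.3, and figures were drawn with matplotlib 3.10.9.

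The genes and lists were chosen with earlier results of these data known. Named genes were the 10, *Tet2*, the 2 highest and 2 lowest of each list by the averaged log2 fold change per ERCC read, and the 3 protein-coding genes most correlated with *Dusp6* and with *Spry4* in log2 CPM (prior count 2). Some of the genes this rule names are not reported here. Coordinates are from GENCODE M21 (mm10) and promoters from RefSeq (GRCm38.p6). No 2 replicates of a group agreed within sampling noise (mean chi-square per gene 1.66 to 5.52 over 18 pairs).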

Additional observations from a re-analysis of the deposited data

Results flagged for a closer look

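The change of the genotype difference from 10 to 40 min of EU was itself tested (edgeR, adjusted over all genes tested). Per ERCC read, the log2 difference between *Tet2*-KO and WT fell for 2 of the 10 genes, *Spred2* (-0.34) and *Etv4* (-0.53), where 19.3% of all genes tested fell and the median of all genes was -0.29, so this count is near the background. As a share of gene reads, neither passed (0.004 and -0.19, adjusted p = 0.973 and 0.28 by edgeR), and the call of *Spred2* per ERCC read was lost in 8 of 18 fits without 1 library and with the replicate block (adjusted p = 0.0519). As a share, the log2 difference rose for 1 of the 10, *Spry4* (0.57), where 5.89% of all genes tested rose and the median was 0.06. It went from -1.88 at 10 min to -1.31 at 40 min, so *Spry4* stayed lower in *Tet2*-KO by a smaller gap. All 3 *Tet2*-KO libraries of *Spry4* lay below all 3 WT libraries at each EU time.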

How the results depend on the processing

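Most results kept their direction and side of the threshold. With TMM in place of the ERCC total, edgeR called 2 of the 10 higher and 5 lower on average, 2 and 4 for 10 min of EU, 1 and 7 for 20 min, and 2 and 4 for 40 min, and for the change of the difference 1 rose and 0 fell. Of the 19910 genes tested, TMM called 8739 in either direction at 10 min, 7676 at 20 min and 7625 at 40 min. For the change of the difference, it called 1993. These totals are not split by direction, so they give no separate background for the higher and the lower counts. With TMM, the averaged values of *Spry1* (-0.25), *Spred1* (-0.090) and *Etv4* (-0.075) turned negative. For shares, TMM gave 2 higher on average, TMM and DESeq2 each 5 lower in place of 7, and no filter 6, since *Spry1* was lost with TMM, DESeq2 and no filter (adjusted p = 0.0583, 0.0658 and 0.0579) and *Etv4* with TMM and DESeq2 (0.135 and 0.119), and TMM and DESeq2 each 2 higher at 10 min. With TMM and DESeq2, *Etv5* turned to 0.032 and 0.027 on average and to 0.025 and 0.021 from 10 to 40 min in WT, and the change for *Spred2* turned to -0.053 and -0.060. A fit of the 6 libraries of 10 min alone gave 1 lower per ERCC read. Without the filter, 1 was lower per ERCC read at 40 min, 1 fell in the change of the difference, and 0 had a higher share at 20 min. At least 10 reads in every library gave 2 shares whose difference rose, with *Dusp5* added (adjusted p = 0.0427). The cause was not tested. From 10 and 20 min alone, the log2 slope ratio turned to -0.37 for *Spred2* and -0.12 for *Etv4*, and from 20 and 40 min alone to 0.37 for *Dusp4*, 0.11 for *Dusp5* and 0.15 for *Spry2*. At single EU times, where exact p cannot go below 0.1, the log2 odds of *Spry4* were -0.87 (10 min) and -0.40 (20 min), of *Spred1* -0.29 and -0.14, and of *Etv5* -0.041 (10 min) and 0.22 (40 min).

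Leaving out 1 library gave 1 to 2 lower per ERCC read at 10 min and at 40 min and 1 to 4 for the change of the difference. For that change, 1768 to 5949 of all genes were called in either direction. For shares, leaving out 1 library gave 1 to 2 higher on average, 0 to 1 higher at 20 min and 3 to 6 lower at 40 min, and log2 odds for *Etv5* of 0.075 to 0.13. *Dusp4* per ERCC read ranged from -0.15 to 0.046, the change for *Spred2* as a share from -0.012 to 0.031, and *Etv5* from 10 to 40 min in *Tet2*-KO from -0.0097 to 0.014.

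Replicates with the same number did not deviate together (median r = -0.007 over 45 pairs, -0.072 to 0.064). With the replicate number as a block, 1 gene fell in the change of the difference per ERCC read, since *Spred2* had an adjusted p of 0.0519 by edgeR. Depth limits *Dusp4*, with 21 to 76 reads per library.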
